A study of Mus musculus with 32 samples.

Results

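Peroxisome proliferator-activated receptor alpha (PPARα) is a nuclear receptor that binds fatty acids and fibrate drugs and, paired with a retinoid X receptor, switches on genes for the uptake, activation and oxidation of fatty acids. In the mouse its best known targets are the Cyp4a omega-hydroxylases, the acyl-CoA thioesterases of the Acot1 to Acot6 cluster, the pantetheinase Vnn1, the pyruvate dehydrogenase kinase Pdk4, the lipoprotein lipase inhibitor Angptl4 and the lipid droplet coat protein Plin2. The kidney expresses PPARα mainly in the proximal tubule, a segment that runs largely on fatty acid oxidation.

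The genes described here are 10 such targets, namely Cyp4a10, Cyp4a12a, Cyp4a14, Acot1, Acot2, Acot3, Vnn1, Pdk4, Angptl4 and Plin2, among 53700 genes counted and 13961 that passed the filter on low counts. All 10 passed that filter. They were chosen by gene name as PPARα-responsive genes. At that choice their counts in salsalate-treated and untreated PKD kidneys and their co-variation among treated kidneys were already known. The comparison of PKD + Salsalate with PKD and the correlations among treated kidneys are therefore given as descriptions, without a test of the members. The comparison of PKD with wildtype shares the untreated PKD kidneys with that choice, so its p-values for members are descriptions too.

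RNA was sequenced from whole kidney tissue of male C57BL/6 mice of the iKspCre-Pkd1del line, which carries a tamoxifen-inducible Cre recombinase driven by the kidney-specific cadherin promoter and loxP sites around part of Pkd1, the gene most often mutated in polycystic kidney disease. The 12 PKD mice received 150 mg/kg tamoxifen on postnatal days 18 and 19, ate normal chow and were 95 days old. The 12 PKD + Salsalate mice had the same genotype, tamoxifen and age, and ate chow with 2.5 g/kg salsalate, a prodrug of salicylate, from postnatal day 81 for 2 weeks. The 8 wildtype mice were of the same line but received no tamoxifen, and were 109 days old by the labels, while the study's protocol names only day 95 as the end of this experiment. Tamoxifen, the Pkd1 deletion and any difference in age thus cannot be told apart between PKD and wildtype. Cystic mice were picked for a similarly mild phenotype, and Cre acts in tubular epithelium and not in every kidney cell.

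Totals were between 11193136 and 109807664 counts on genes per kidney, with PKD + Salsalate replicate 3 the deepest. Pkd1 itself was counted over the whole gene, deleted and retained parts together, at 53.1 to 86.4 CPM (counts scaled to a common library size) in wildtype and 70.7 to 113 CPM in PKD kidneys, so that its level does not check the deletion. In 5 wildtype kidneys (replicates 1 to 5) the library name ends in R, and between 13.2% and 15.7% of their alignments lay outside annotated genes, against 7.60% to 9.77% in the other 3 (replicates 6 to 8). Their summed proximal tubule markers were 9787 to 13291 CPM, against 15177 to 17566 CPM. Differences of members between PKD and wildtype are therefore also given against each of these sets. In 3 kidneys single values stood apart: PKD replicate 10 held 4797 CPM of summed liver markers against at most 226 CPM in any other kidney, and wildtype replicate 1, singled out after its values were seen, held 55.9 CPM of Cyp4a14 against at most 15.4 CPM in the other 7 wildtype kidneys. In PKD replicate 12, summed adrenal cortex markers were 92.1 CPM, against at most 4.92 CPM in any other kidney. It was kept in all fits and correlations, and without it the members that passed numbered 5, 3 and 7 in the 3 comparisons, as with it. Without wildtype replicate 1, which was singled out on a member, the values below change for some members and are given there as descriptions.

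The members lie in a few genomic neighbourhoods. On GRCm39, Cyp4a12a (ENSMUSG00000066071, chromosome 4, 115156243 to 115190012, plus strand), Cyp4a14 (ENSMUSG00000028715, 115343397 to 115353344, minus strand) and Cyp4a10 (ENSMUSG00000066072, 115375461 to 115390849, plus strand) share a cluster. Plin2 (ENSMUSG00000028494, 86565912 to 86588459, minus strand) lies elsewhere on chromosome 4. Acot2 (ENSMUSG00000021226, 84034428 to 84040647), Acot1 (ENSMUSG00000072949, 84056256 to 84065145) and Acot3 (ENSMUSG00000021228, 84098918 to 84107176) lie in 1 cluster on the plus strand of chromosome 12. Vnn1 (ENSMUSG00000037440) lies on chromosome 10 at 23770586 to 23781241, Pdk4 (ENSMUSG00000019577) on chromosome 6 at 5483097 to 5496339, and Angptl4 (ENSMUSG00000002289) on chromosome 17 at 33992724 to 34000804. The clustered genes are close copies: of all stretches of 100 transcript bases, 29.9% of those of Cyp4a12a also occurred in another gene (mostly Cyp4a12b), as did 13.6% for Cyp4a10 (mostly Cyp4a32), 14.4% for Acot1 and 17.5% for Acot2 (mostly each other) and 21.6% for Acot3 (mostly Gm49366, with which it shares exon bases). Reads from such stretches are not counted when they align to more than 1 place, so values of these 5 genes are less certain. Cyp4a14, Vnn1, Pdk4 and Angptl4 shared no such stretch with another gene, and Plin2 shared 0.0791%.

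PPARα with its partner binds pairs of AGGTCA-like cores that lie 1 base apart. Promoter sequences, from 250 bases before to 50 bases after the start site (RefSeq, GRCm38.p6), could be matched for 5 members, namely Acot1, Acot2, Acot3, Pdk4 and Plin2, and are shown for the Acot genes, which lie in 1 cluster, and for Plin2. AGGTCA was searched on both strands, and so was a pair of AGGTCA cores 1 base apart with up to 2 mismatches in the 12 fixed bases, and matches are in capitals.
Acot2 (chr12:83987611-83987910, plus strand): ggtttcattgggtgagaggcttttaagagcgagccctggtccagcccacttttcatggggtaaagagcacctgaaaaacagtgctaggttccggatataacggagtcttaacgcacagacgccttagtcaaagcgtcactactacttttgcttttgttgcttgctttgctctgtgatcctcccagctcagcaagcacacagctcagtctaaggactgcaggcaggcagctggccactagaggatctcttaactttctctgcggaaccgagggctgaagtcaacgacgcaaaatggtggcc
Acot1 (chr12:84009252-84009551, plus strand): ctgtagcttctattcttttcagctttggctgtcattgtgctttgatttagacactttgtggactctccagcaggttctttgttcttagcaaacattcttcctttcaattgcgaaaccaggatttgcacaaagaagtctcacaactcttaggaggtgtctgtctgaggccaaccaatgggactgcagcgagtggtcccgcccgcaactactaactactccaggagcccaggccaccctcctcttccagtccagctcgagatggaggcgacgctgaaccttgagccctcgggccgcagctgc
Acot3 (chr12:84051894-84052193, plus strand): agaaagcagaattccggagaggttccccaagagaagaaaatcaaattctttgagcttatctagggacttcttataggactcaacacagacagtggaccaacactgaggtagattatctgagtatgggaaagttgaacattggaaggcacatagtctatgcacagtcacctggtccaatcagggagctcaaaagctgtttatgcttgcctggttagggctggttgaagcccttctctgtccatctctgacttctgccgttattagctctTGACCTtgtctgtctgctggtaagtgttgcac
Plin2 (chr4:86670010-86670309, minus strand): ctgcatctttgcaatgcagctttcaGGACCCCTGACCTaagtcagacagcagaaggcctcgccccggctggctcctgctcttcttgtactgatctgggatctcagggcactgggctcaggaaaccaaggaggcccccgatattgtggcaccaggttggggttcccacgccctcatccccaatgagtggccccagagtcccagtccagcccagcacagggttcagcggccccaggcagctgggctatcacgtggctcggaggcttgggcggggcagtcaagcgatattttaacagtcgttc

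AGGTCA was present in the promoters of Acot3 and Plin2 and in 16.3% of all 32851 promoters of this length. The paired motif was present in the promoter of Plin2, with 2 mismatches and starting at position -225 from the start site, and in 3.86% of all promoters. Acot1, Acot2 and Pdk4 held neither in this window. A match is a run of letters and not a shown binding site, and the Plin2 motif includes its AGGTCA core.

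Levels were compared between genes as CPM per kilobase of exon. In PKD kidneys the median was 93.3 for Cyp4a10 and 63.1 for Cyp4a12a, followed by 25.7 for Vnn1, 18.0 for Acot1, 14.4 for Cyp4a14, 14.1 for Plin2, 13.5 for Angptl4, 13.2 for Acot2, 4.46 for Pdk4 and 1.82 for Acot3. Cyp4a14, Plin2, Angptl4 and Acot2 had overlapping ranges in these 12 kidneys, so that their order among themselves is not set. In wildtype kidneys Cyp4a14 stood at a median of 3.89 CPM per kilobase, near Pdk4 (3.72) and Acot3 (2.74). In PKD + Salsalate kidneys it stood at 56.1, after Cyp4a10 (115) and Cyp4a12a (65.3) and above the other 7 members.

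**Figure D1:**
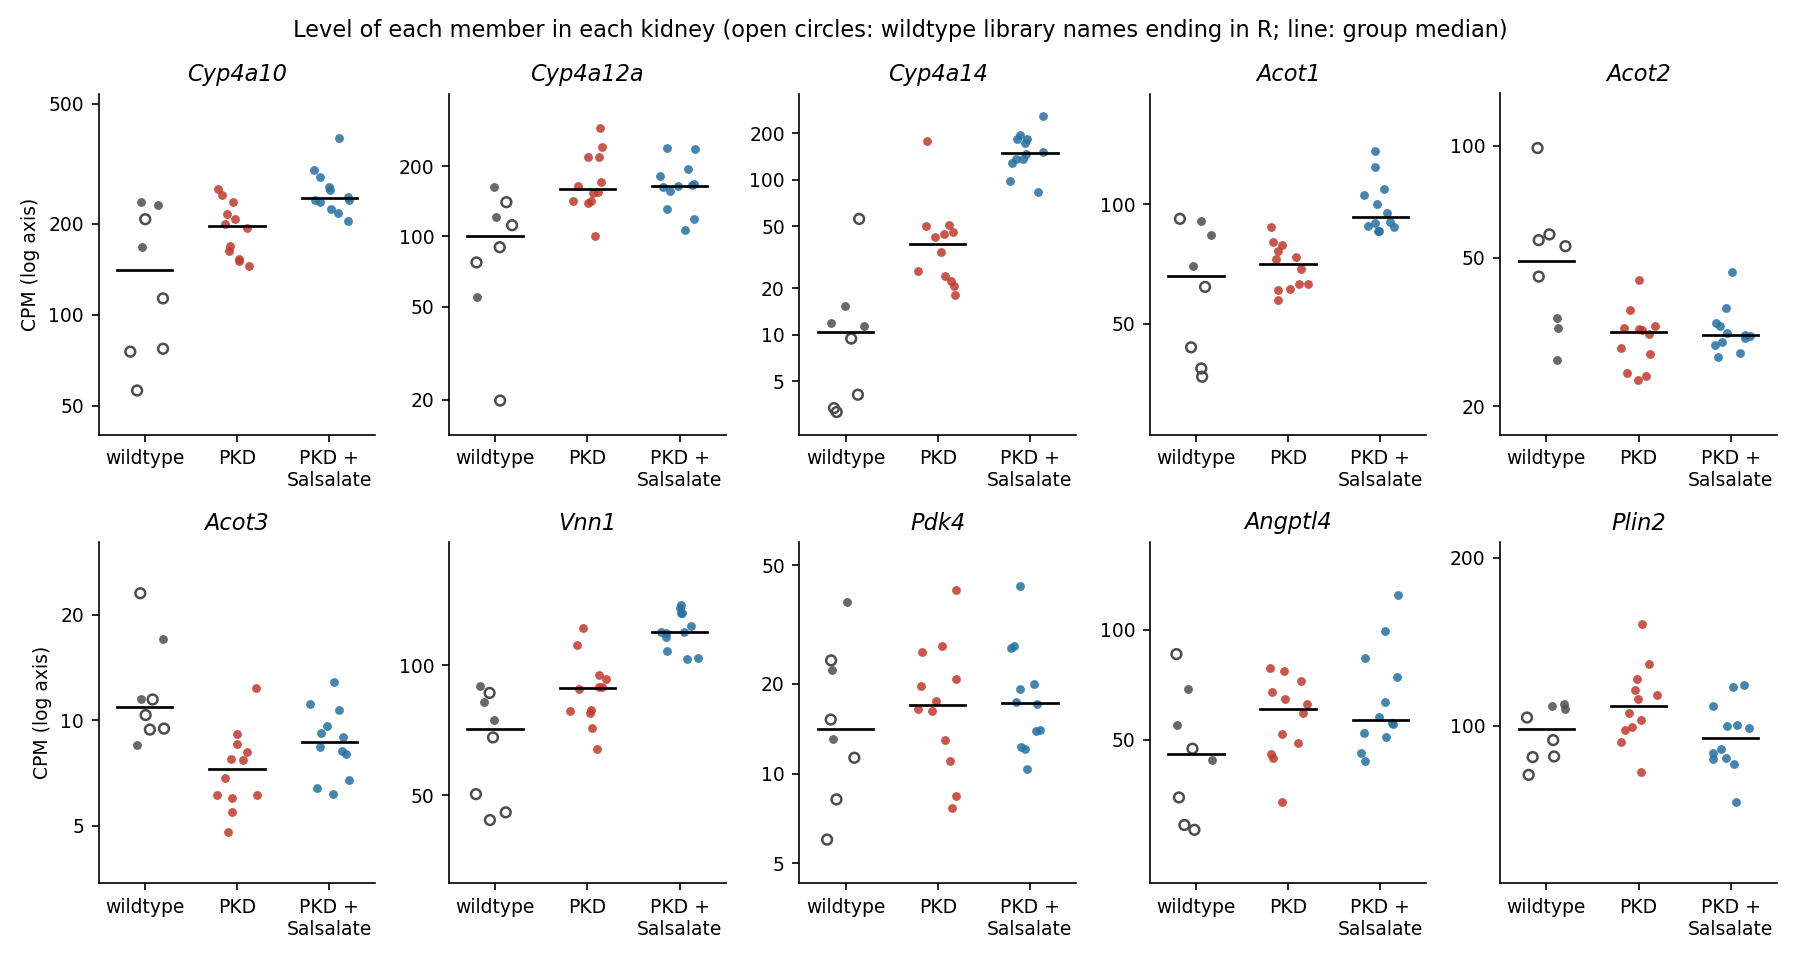
Level of each of the 10 members in each kidney, as CPM on a log axis, in wildtype (8, open circles for the 5 libraries whose name ends in R), PKD (12) and PKD + Salsalate (12) kidneys, with a line at each group's median. Cyp4a14 moves from a median of 10.4 to 38.3 to 149 CPM, while Pdk4, Angptl4 and Plin2 overlap across the groups.

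The comparison of PKD with wildtype asks how the mildly cystic kidney differs from a kidney without the deletion. Its PKD kidneys are those of the comparison used to choose the members, so it is not independent of that choice. Calls and adjusted p-values of members are therefore given here and below as descriptions. Of the 10 members, 3 were higher in PKD kidneys (Cyp4a14, Cyp4a12a and Vnn1), 2 were lower (Acot2 and Acot3) and 5 did not pass an adjusted p of 0.05 in edgeR's quasi-likelihood test. Of all genes tested, 49.1% passed, 24.1% higher and 25.0% lower, so that 5 of 10 is near the background. In bulk tissue, fewer cells of a type and less RNA per cell cannot be told apart. Along with the members, all 6 tubular injury markers and all 8 macrophage markers were higher in PKD, with summed levels of 1216 to 2683 CPM against 235 to 504 CPM for injury and 337 to 537 CPM against 148 to 232 CPM for macrophages, and the part of these changes in the members' levels was not tested.

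Cyp4a14 hydroxylates the end of medium and long fatty acid chains. It was counted at 3.17 (lowest), 10.4 (median) and 55.9 (highest) CPM in wildtype kidneys and at 18.0, 38.3 and 178 CPM in PKD kidneys. Over all kidneys the groups overlapped, and 1 of 12 PKD kidneys lay above every wildtype kidney. Apart from wildtype replicate 1 (55.9 CPM), the other wildtype kidneys reached at most 15.4 CPM. Apart from PKD replicate 10 (178 CPM), the other PKD kidneys reached at most 50.8 CPM. The log2 fold change was 1.72 ± 0.43 (SE, adjusted p = 0.00153), 2.00 ± 0.29 without both kidneys and 2.42 ± 0.40 without wildtype replicate 1 alone. Taking wildtype replicates 1 to 5 alone, whose names end in R, it was 1.65 (adjusted p = 0.00977), and with the other 3 alone it was 1.82 (adjusted p = 0.00507). The first set includes replicate 1 (55.9 CPM). Its other kidneys, at 3.17 to 9.44 CPM, lay below the 11.3 to 15.4 CPM of the second set, so the close values depend on replicate 1.

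Cyp4a12a is the male-type Cyp4a enzyme of the mouse kidney, induced by androgen and the main maker of the vasoactive lipid 20-HETE there. It was counted at 19.8, 101 and 163 CPM in wildtype and 100.2, 160 and 293 CPM in PKD kidneys, with wildtype replicate 1 lowest and PKD replicate 10 highest, and 6 of 12 PKD kidneys lay above every wildtype kidney. It was higher in PKD by 0.87 ± 0.23 on the log2 scale (adjusted p = 0.00268). The difference was 0.63 ± 0.18 without both of these kidneys. With wildtype replicates 1 to 5 alone the difference was 1.02 (adjusted p = 0.00146), and with replicates 6 to 8 alone it was 0.65, which no longer passed (adjusted p = 0.0553). Its close copy Cyp4a12b moved further, from a median of 4.63 CPM in wildtype to 28.1 CPM in PKD kidneys, with ranges of 2.05 to 6.81 and 20.7 to 44.5 CPM. Cyp4a12b rose by 2.68 ± 0.16 on the log2 scale (adjusted p = 2.35e-14), by 3.07 and 2.28 against the wildtype sets, with the limit that 35.2% of its 100-base stretches are shared with Cyp4a12a.

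Cyp4a10, another omega-hydroxylase of the same cluster, was counted at 56.2, 141 and 236 CPM in wildtype and 145, 197 and 261 CPM in PKD kidneys. In wildtype the 5 libraries ending in R were at 207, 77.3, 75.6, 113 and 56.2 CPM and the other 3 at 168, 231 and 236 CPM. Only replicate 1 of the first set came within the range of the second. The difference of 0.42 ± 0.20 did not pass over all 8 (adjusted p = 0.0728), and it was 0.89 against the first set (adjusted p = 0.000343) and -0.12 against the second (adjusted p = 0.568). Without wildtype replicate 1 it was 0.51 ± 0.20 and passed (adjusted p = 0.0379). The direction of Cyp4a10 in PKD thus depended on which wildtype kidneys were used.

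The thioesterases Acot1 (cytosolic), Acot2 (mitochondrial) and Acot3 (peroxisomal) split fatty acyl-CoA into free fatty acid and coenzyme A. Acot3 was counted at 8.49, 10.9 and 23.0 CPM in wildtype and 4.80, 7.26 and 12.4 CPM in PKD kidneys, and 9 of 12 PKD kidneys lay below every wildtype kidney. Acot3 fell by 0.76 ± 0.17 on the log2 scale (adjusted p = 0.000437), with close values against both wildtype sets (-0.78 and -0.75, adjusted p = 0.000987 and 0.00506) and a value of -0.59 ± 0.16 without wildtype replicate 1. Acot2 was counted at 26.7, 49.1 and 98.5 CPM in wildtype and 23.5, 31.7 and 43.8 CPM in PKD kidneys.

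The wildtype values of Acot2 formed separate ranges, 44.6 to 98.5 CPM in libraries ending in R and 26.7 to 34.5 CPM in the others. Acot2 fell by 0.71 ± 0.15 on the log2 scale over all 8 wildtype kidneys (adjusted p = 0.000335), by 1.01 against the first set (adjusted p = 1.64e-07) and by 0.03 against the second, which did not pass (adjusted p = 0.875). Without wildtype replicate 1 Acot2 fell by 0.50 ± 0.13 on the log2 scale. Acot1 was counted at 36.8, 66.0 and 91.9 CPM in wildtype and 57.5, 70.7 and 87.8 CPM in PKD kidneys, all 12 within the wildtype range. Its difference was 0.12 ± 0.14 (adjusted p = 0.491), 0.37 against the first set (adjusted p = 0.0338) and -0.22 against the second (adjusted p = 0.156). Acot1 and Acot2, which share sequence, thus had opposite signs against the first set.

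Vnn1 frees cysteamine and pantothenate from pantetheine and sits on the surface of proximal tubule cells. It was counted at 43.9, 71.4 and 89.7 CPM in wildtype and 63.9, 88.7 and 122 CPM in PKD kidneys, with 4 of 12 PKD kidneys above every wildtype kidney. Vnn1 was higher in PKD by 0.38 ± 0.12 (adjusted p = 0.00908), by 0.59 against the libraries ending in R (adjusted p = 0.000334) and by 0.09 against the others, which did not pass (adjusted p = 0.578).

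Pdk4, which shuts pyruvate out of the citric acid cycle when fat is burned, was counted at 6.00, 14.1 and 37.5 CPM in wildtype and 7.68, 16.9 and 41.2 CPM in PKD kidneys, and the groups covered nearly the same range (log2 difference 0.12 ± 0.30, adjusted p = 0.768). Angptl4 stood at 28.4, 45.6 and 85.9 CPM in wildtype and 33.7, 60.8 and 78.6 CPM in PKD kidneys (0.27 ± 0.20, adjusted p = 0.278). Plin2, which coats lipid droplets, stood at 81.7, 98.9 and 109.5 CPM in wildtype and 82.8, 109 and 153 CPM in PKD kidneys (0.18 ± 0.09, adjusted p = 0.108). Its highest PKD kidney was replicate 10, which held liver transcripts, and the next was at 129 CPM. The 95% intervals reached from -0.50 to 0.73 for Pdk4, from -0.15 to 0.68 for Angptl4 and from -0.01 to 0.37 for Plin2. Against the libraries ending in R the differences were 0.56 for Pdk4 (adjusted p = 0.162), 0.39 for Angptl4 (adjusted p = 0.157) and 0.28 for Plin2, which passed (adjusted p = 0.0263). Against the other 3 they were -0.38 (adjusted p = 0.435), 0.07 (adjusted p = 0.835) and 0.02 (adjusted p = 0.919).

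Read against 1 wildtype set at a time, 8 of 10 members passed against the 5 libraries ending in R, where 59.6% of all genes passed, and 2 of 10 (Cyp4a14 and Acot3) passed against the other 3, where 40.8% of all genes passed. Cyp4a14 and Acot3 passed against both.

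**Figure D2:**
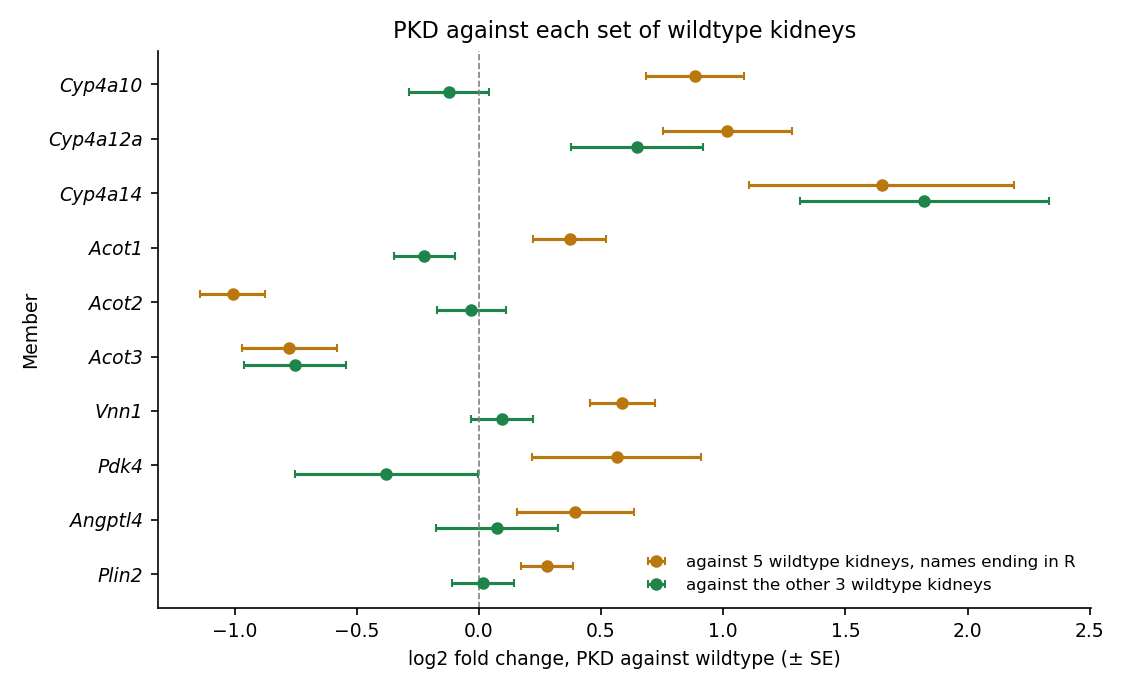
Log2 fold change of each member in 12 PKD kidneys, with its SE, against the 5 wildtype kidneys whose library name ends in R and against the other 3. Cyp4a14 and Acot3 have nearly the same value against both sets, while Cyp4a10 (0.89 and -0.12) and Acot2 (-1.01 and -0.03) do not. Within the first set, Cyp4a14 and Acot3 were highest in wildtype replicate 1. For Cyp4a14 the rest of that set (at most 9.44 CPM) lay below the other 3 (11.3 to 15.4 CPM).

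The comparison of PKD + Salsalate with PKD asks what the drug changed within 2 weeks. Over all genes, 0.580% passed an adjusted p of 0.05, 0.251% higher. Among the members 3 passed (Cyp4a14, Acot1 and Vnn1, all higher in treated kidneys), and because this contrast was used to choose them the count carries no weight of its own. Leaving out 1 kidney at a time, Cyp4a14 passed in 32 of 32 fits, Vnn1 in 18 and Acot1 in 10. The fitted difference was above 0 for 8 members and below 0 for Cyp4a12a and Plin2, with a median of 0.22 on the log2 scale beside -0.01 over all genes tested.

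Cyp4a14 was counted at 83.5, 149 and 257 CPM in treated kidneys against 18.0, 38.3 and 178 CPM in PKD kidneys. Of the 12 treated kidneys, 4 lay above every PKD kidney. The highest PKD kidney was replicate 10 (178 CPM), which held liver transcripts, and the highest of the other 11 was at 50.8 CPM. The fitted difference was 1.75 ± 0.36 on the log2 scale, or 3.37-fold, and 2.17 ± 0.32 without PKD replicate 10. Cyp4a10 moved less, from 145, 197 and 261 CPM to 204, 243 and 386 CPM (0.40 ± 0.17), and 4 treated kidneys lay above every PKD kidney. Cyp4a12a did not share this pattern, at 107, 165 and 238 CPM in treated kidneys (-0.08 ± 0.20).

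Among the thioesterases, Acot1 was counted at 85.5, 92.8 and 136 CPM in treated kidneys, 9 of which lay above the highest PKD kidney at 87.8 CPM (0.50 ± 0.12). Acot2 stood at 27.1, 31.0 and 45.9 CPM, within nearly the same range as in PKD (0.07 ± 0.14), and Acot3 stood at 6.14, 8.66 and 12.8 CPM (0.26 ± 0.16). The treated median of Acot3 lay between its PKD and wildtype medians.

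Vnn1 was counted at 104, 119 and 138 CPM in treated kidneys, and 5 of them lay above the highest PKD kidney at 122 CPM (0.45 ± 0.11). Pdk4 stood at 10.4, 17.2 and 42.7 CPM (0.03 ± 0.27), Angptl4 at 43.9, 56.7 and 124 CPM (0.19 ± 0.18) and Plin2 at 73.2, 95.0 and 118 CPM (-0.20 ± 0.08). Leaving out 1 kidney at a time moved Plin2 between -0.23 and -0.15, with the highest adjusted p in the fit without PKD replicate 10. PKD + Salsalate replicate 1 was the highest treated kidney for Cyp4a10, Cyp4a14, Acot1, Acot2, Vnn1, Angptl4 and Plin2.

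**Figure D3:**
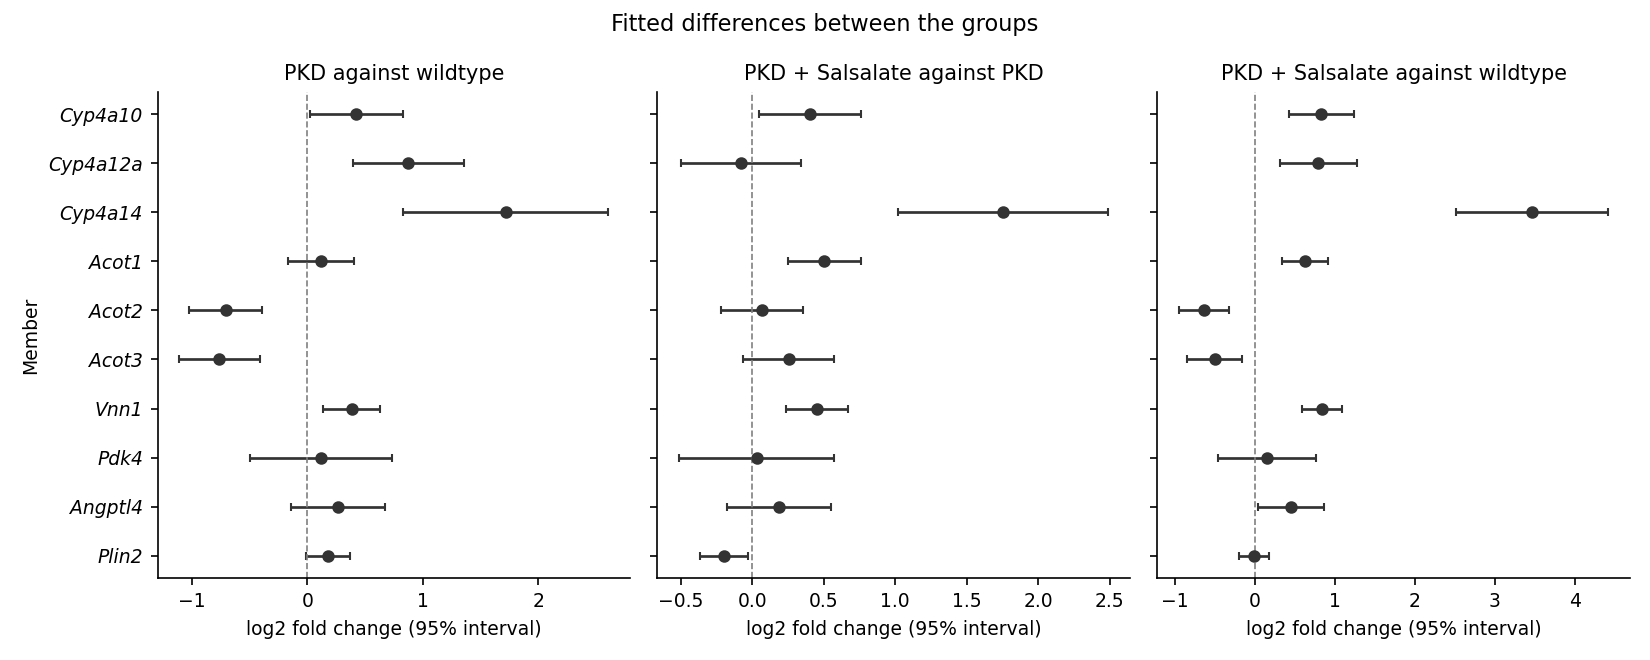
Fitted log2 fold change of each member with its 95% interval in the 3 comparisons between 8 wildtype, 12 PKD and 12 PKD + Salsalate kidneys. Cyp4a14 is at 1.72, 1.75 and 3.47, and Acot2 (-0.71) and Acot3 (-0.76) are the members below 0 in PKD against wildtype.

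Against wildtype, the same 12 PKD + Salsalate kidneys are compared, so that this contrast is not independent of the one above and is again described only. Of the 10 members 7 passed, beside 44.9% of all genes. Cyp4a14 differed by 3.47 ± 0.47 on the log2 scale, or 11.1-fold, Cyp4a10 by 0.83 ± 0.20, Vnn1 by 0.84 ± 0.12, Cyp4a12a by 0.79 ± 0.23 and Acot1 by 0.62 ± 0.14, while Acot2 (-0.64 ± 0.15) and Acot3 (-0.51 ± 0.17) were lower. All 12 treated kidneys lay above every wildtype kidney for Cyp4a14 and Vnn1, 2 of 10 members, beside 4.46% of all genes tested. Without wildtype replicate 1, Cyp4a14 differed by 4.17 ± 0.43, Angptl4 passed (0.61 ± 0.20) and Acot3 no longer did (-0.34 ± 0.16). Pdk4 (0.15 ± 0.30), Angptl4 (0.45 ± 0.20) and Plin2 (-0.02 ± 0.09) did not pass. Against the 3 wildtype libraries not ending in R, Cyp4a14 (3.59) and Vnn1 (0.55) passed and the other 8 members did not, while 34.9% of all genes passed.

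Co-variation among kidneys of 1 group was measured on log2 CPM. Among the 12 treated kidneys the 45 pairs of members had a median Pearson r of 0.25, 11 pairs were above 0.5 and 14 were below 0. Cyp4a10, Cyp4a14 and Vnn1 were close to one another (r = 0.86 for Cyp4a10 and Vnn1, 0.85 for Cyp4a10 and Cyp4a14, and 0.82 for Cyp4a14 and Vnn1), with rho of 0.88, 0.87 and 0.69. Without the 2 kidneys farthest from the median of the first gene, r was 0.90, 0.78 and 0.69. Acot1 and Acot2, which share sequence, had r = 0.85, which became 0.43 without the 2 farthest kidneys, and rho of 0.56. Cyp4a12a was negative with each of the other 9 members, down to -0.61 with Cyp4a14. Pdk4 was near 0 with Cyp4a10 (-0.02), Cyp4a14 (-0.14) and Vnn1 (0.05). Its highest r was with Angptl4 (r = 0.61, rho 0.59), which became 0.38 without the 2 farthest kidneys. Its r with Plin2 went from 0.29 to 0.68 without them. In these kidneys Cyp4a12a went with the summed androgen-responsive genes (r = 0.78) and with the summed adipocyte markers (0.78), and Cyp4a14 went against both (-0.56 and -0.71). Totals in these 12 kidneys were 14088385 to 109807664 counts, and the share of alignments outside annotated genes had r = -0.61 with Vnn1, -0.50 with Cyp4a10 and -0.35 with Cyp4a14. The part of these measures in the pairs was not tested.

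Co-variation among the untreated PKD kidneys was not used in choosing the members, though their counts there were known. Pairs were tested in these kidneys without PKD replicate 10 (n = 11, 100000 permutations, 2-sided, adjusted over 45 pairs). Because of that choice the permutation p-values are given as descriptions. The median r was 0.43, 20 pairs were above 0.5 and 7 below 0, and 11 pairs passed an adjusted p of 0.05. They joined 6 genes, namely Cyp4a10, Cyp4a14, Acot1, Vnn1, Pdk4 and Plin2. Cyp4a10 had r = 0.87 with Pdk4, 0.87 with Cyp4a14, 0.83 with Plin2 and 0.82 with Vnn1 (permutation p = 0.000430, 0.00156, 0.00144 and 0.00109, each adjusted to 0.0140). Pdk4 had r = 0.84 with Vnn1, 0.79 with Plin2 and 0.77 with Cyp4a14 (adjusted permutation p = 0.0140, 0.0305 and 0.0380). Plin2 had r = 0.79 with Cyp4a14, 0.75 with Vnn1 and 0.72 with Acot1 (adjusted permutation p = 0.0259, 0.0421 and 0.0471), and Cyp4a14 had 0.77 with Acot1 (0.0421). Before adjustment 16 pairs were under 0.05. How often pairs of other genes reach such values, here or among treated kidneys, was not computed, so these counts have no background beside them.

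By Spearman's rho 2 of these pairs passed, Cyp4a10 with Plin2 (rho = 0.89, adjusted permutation p = 0.0216) and with Pdk4 (rho = 0.86, adjusted permutation p = 0.0272). Without the 2 kidneys farthest from the median of the first gene (9 left), r of the 11 pairs was between 0.30 and 0.88, above 0.5 in 10 of them, and none of the 45 pairs passed after adjustment, with 9 under 0.05 before it (20000 permutations). These tests had 9 kidneys in place of 11, and r of Cyp4a10 with Cyp4a14, for one, was 0.88 there. All 6 genes also moved with other measures over these 11 kidneys. With summed androgen-responsive genes r was between -0.84 (Cyp4a10) and -0.58 (Acot1), with summed injury markers between 0.40 (Vnn1) and 0.85 (Plin2), and with the share of alignments outside annotated genes between -0.66 (Vnn1) and -0.11 (Acot1). Their part in the pairs was not tested. Pdk4 with Cyp4a10 was at 0.87 in PKD and -0.02 in treated kidneys, and whether these differ was not tested. In wildtype no r is given, because its 2 sets hold 5 and 3 kidneys.

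**Figure D4:**
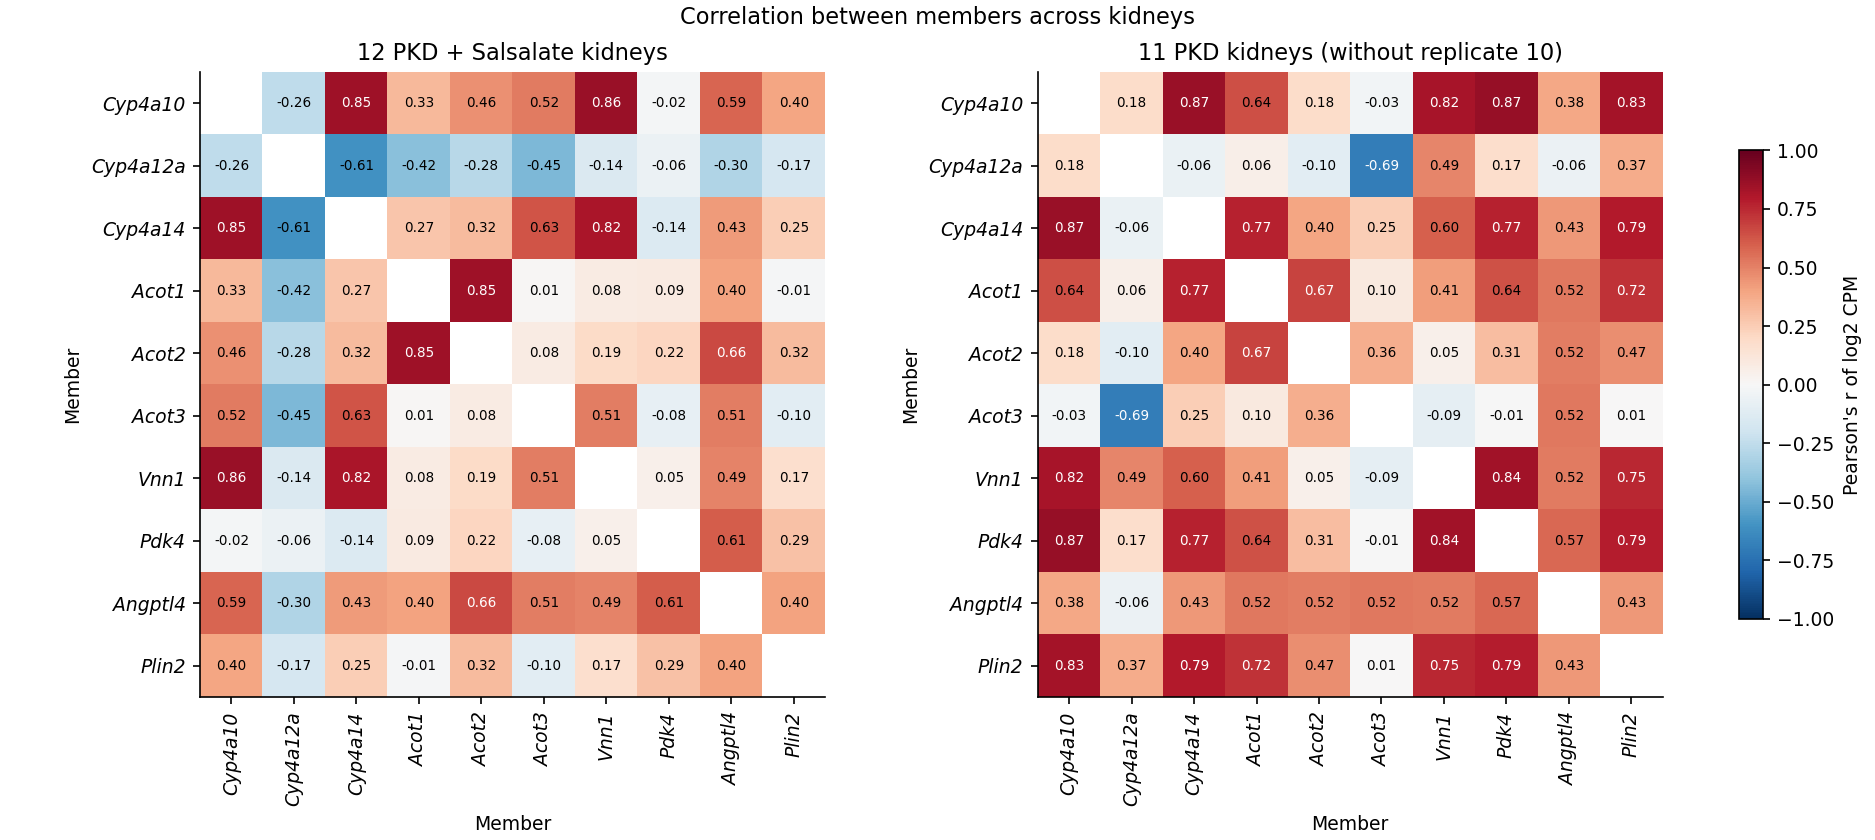
Pearson's r of log2 CPM for each pair of members over the 12 PKD + Salsalate kidneys and over 11 PKD kidneys (without replicate 10), as colour from -1 to 1 with the value printed. Cyp4a10 stands at 0.85 and 0.87 with Cyp4a14 and at 0.86 and 0.82 with Vnn1 in treated and PKD kidneys, Cyp4a14 with Vnn1 at 0.82 and 0.60 (the latter did not pass, adjusted permutation p = 0.129), and Pdk4 and Plin2 with Cyp4a10 at -0.02 and 0.40 in treated and at 0.87 and 0.83 in PKD kidneys, a difference that was not tested.

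**Figure D5:**
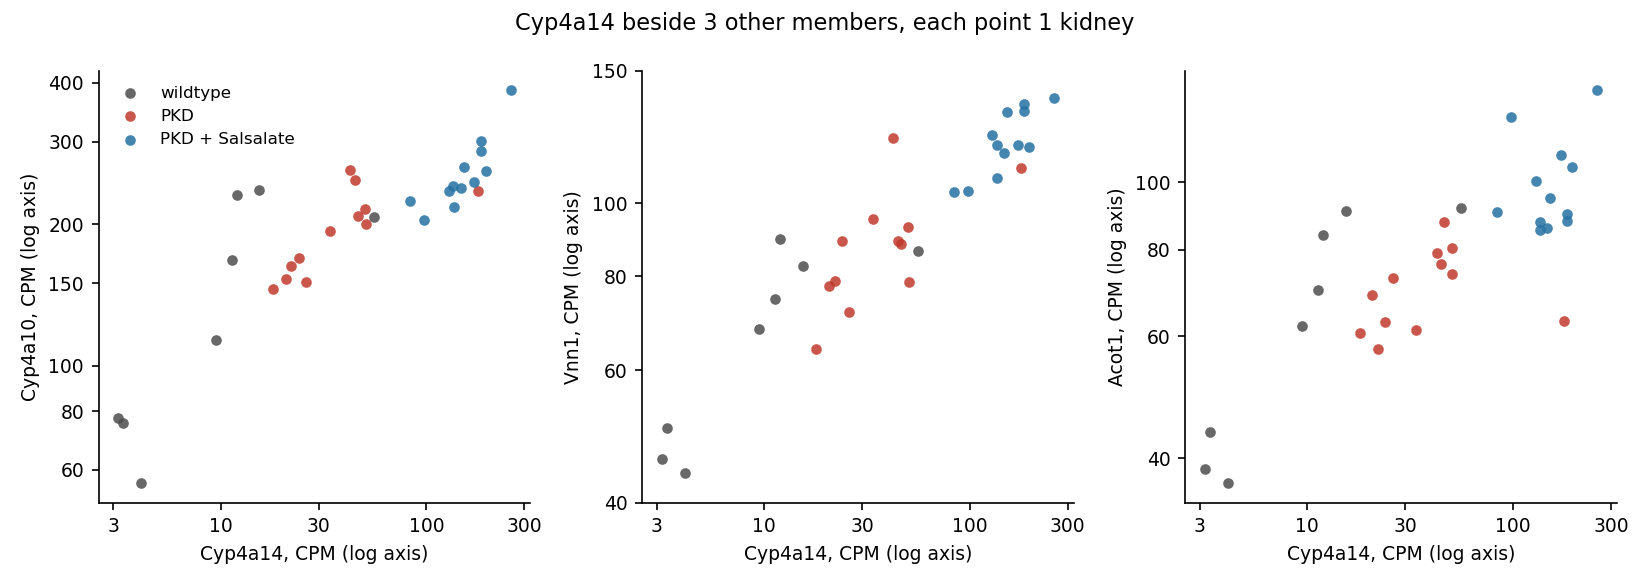
Cyp4a14 against Cyp4a10, Vnn1 and Acot1 in CPM on log axes, 1 point per kidney, coloured by group. The 12 treated kidneys lie at 83.5 to 257 CPM of Cyp4a14, and 1 PKD kidney (replicate 10, 178 CPM) and 1 wildtype kidney (replicate 1, 55.9 CPM) lie to the right of their groups.

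For each member the 3 genes most like it over the 12 treated kidneys were the highest of 13961 by Pearson's r, so high values are built in, and r over the 11 PKD kidneys, which did not choose them, is given after each. Cyp4a10 was nearest to Alpl (0.92, then 0.66), Vnn1 (0.86, then 0.82) and Gldc (0.85, then 0.43). Cyp4a14 was nearest to Cyp4a10 (0.85, then 0.87), Vav3 (0.85, then 0.56) and Zfp511 (0.83, then 0.26). Vnn1 was nearest to the glycosyltransferase Ugt3a2 (0.97, then 0.75), Umps (0.92, then 0.47) and Senp3 (0.91, then 0.55). Cyp4a12a was nearest to Ldhd (0.93, then 0.74), Metrnl (0.91, then -0.28) and Afap1l1 (0.90, then -0.01). Acot1 was nearest to Rnf227 (0.87, then 0.21), Pnpt1 (0.86, then 0.51) and the clock gene Bmal1 (0.85, then 0.58), and Acot2 to Net1 (0.89, then 0.69), Rbms2 (0.88, then -0.06) and Acot1 (0.85, then 0.67). Acot3 was nearest to Akr1c19 (0.89, then -0.23), Pmm2 (0.89, then 0.05) and Ppil2 (0.87, then 0.27).

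Pdk4 was nearest to H2-Q10 (0.88, then 0.08), Slc24a3 (0.88, then 0.33) and the fatty acid desaturase Scd1 (0.79, then 0.46). Angptl4 was nearest to the carnitine carrier Slc25a20 (0.85, then 0.42), the mitochondrial thiolase Acaa2 (0.83, then 0.15) and Net1 (0.82, then 0.41), of which Slc25a20 and Acaa2 are themselves in the list of PPAR targets described next. Plin2 was nearest to Tuba1c (0.91, then 0.08), Ssr2 (0.87, then 0.75) and Gsdme (0.86, then 0.26).

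Around the members stand the receptors and their partners. Between PKD and wildtype 49.1% of all genes passed, 24.1% higher and 25.0% lower. Of the 13 receptors and partners 12 were tested, and in PKD kidneys 6 fell and 0 rose. They were Ppara itself (31.2 CPM median in wildtype and 23.5 in PKD, -0.31 ± 0.09, adjusted p = 0.00645), its partners Rxra (-0.33 ± 0.08) and Rxrb (-0.49 ± 0.06), the coactivators Ppargc1a (-0.33 ± 0.09) and Ppargc1b (-0.52 ± 0.14), and Lpin1 (-0.39 ± 0.11). Ppard (-0.06), Pparg (0.01), Med1 (0.11), Ncor1 (-0.06) and Nrip1 (-0.14) were among the 6 that did not pass. Rxra (-0.20 and -0.52) and Rxrb (-0.56 and -0.38) passed against both wildtype sets. Ppara (-0.33 and -0.29), Ppargc1a (-0.50 and -0.01), Ppargc1b (-0.68 and -0.22) and Lpin1 (-0.52 and -0.16) passed against the libraries ending in R and not against the others. With salsalate, 0 of the 12 passed in edgeR or in DESeq2, 3 had an unadjusted p under 0.05, and differences ran from -0.18 (Nrip1) to 0.15 (Ppard), with Ppara at 0.03.

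Of 17 other Cyp4 genes 8 were tested, and 5 were higher and 1 was lower in PKD, where 49.1% of all genes passed. Beside Cyp4a12b, those higher were Cyp4f18 (0.89), Cyp4v3 (0.79), Cyp4f17 (0.41) and Cyp4f16 (0.35), and Cyp4f13 fell by 0.28 on the log2 scale. Cyp4f17 did not pass against the 3 wildtype libraries not ending in R (0.13). With salsalate 0 of the 8 passed in edgeR or DESeq2, and 2 had an unadjusted p under 0.05. Cyp4a12b stood at a median of 38.9 CPM in treated kidneys (0.36 ± 0.12, adjusted p = 0.184).

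Of 10 other Acot genes 8 were tested. In PKD, where 49.1% of all genes passed, Acot12 (-0.44), Acot4 (-0.29) and Acot6 (-0.28) were lower and Acot9 (0.24) was higher. Acot12 and Acot4 passed against both wildtype sets, Acot6 passed against the libraries not ending in R and Acot9 against those ending in R. With salsalate Acot7, a cytosolic thioesterase, was higher (0.23 ± 0.05, adjusted p = 0.0362), and DESeq2 also called 1 of the 8. Of 14 other Vnn, Pdk, Angptl and Plin genes 11 were tested. Pdk1, a kinase of the same family as Pdk4, fell by 0.78 ± 0.07 on the log2 scale in PKD (adjusted p = 2.88e-10), by 0.86 and 0.64 against the wildtype sets. With salsalate 0 of the 11 passed in edgeR, where 1 had an unadjusted p under 0.05, and 2 in DESeq2.

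The list of 40 other PPAR targets held the carriers, oxidases and dehydrogenases of fatty acid oxidation, and 36 were tested. In PKD the median difference was -0.03 beside -0.01 over all genes. Of all genes 24.1% passed as higher and 25.0% as lower, and of the 36 targets 2 were higher and 8 lower. Those higher were the uncoupling protein Ucp2 (0.58 ± 0.09, adjusted p = 2.47e-06) and the carnitine importer Slc22a5 (0.34 ± 0.13, adjusted p = 0.0252). The 4 that fell most were the monoglyceride lipase Mgll (-0.39), carnitine acetyltransferase Crat (-0.39), the thiolase Acaa2 (-0.34) and the triglyceride lipase Pnpla2 (-0.33). Ucp2, Crat and Acaa2 passed against both wildtype sets. Slc22a5 (0.73 and -0.14), Mgll (-0.60 and 0.01) and Pnpla2 (-0.02 and -0.74) each passed against 1 set.

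With salsalate, 27 of these 36 targets had a difference above 0, with a median of 0.09 beside -0.01 over all genes tested. The share of all genes above 0 is not given here, and the list was chosen with earlier results known. In edgeR 0 of the 36 passed (6 with an unadjusted p under 0.05), beside 0.580% of all genes, and in DESeq2 2 passed. The highest value was that of Acaa2 (0.32 ± 0.09, adjusted p = 0.0806), which did not pass. An alternative edgeR fit without PKD replicate 10 and wildtype replicate 1 gave 0.33 (adjusted p = 0.0317). Wildtype replicate 1 was singled out after its values were seen.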

How the data were processed

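RNA was sequenced from kidneys of 32 mice in 3 groups (8 wildtype, 12 PKD, 12 PKD + Salsalate). The authors deposited 1 table of raw counts per gene: per the labels and the study's methods, reads were demultiplexed with bcl2fastq 2.20, trimmed with cutadapt 2.10, aligned with STAR 2.7.5a to GRCm39 and counted with HTSeq 0.12.4, set to stranded. The library kit keeps strand. Whether the setting matches the kit's strand was not checked, and 73.6% to 83.1% of alignments were counted in genes. Totals of 11193136 to 109807664 counts per kidney set the precision. Reads that aligned to more than 1 place (7.13% to 9.82% of alignments per kidney) were not counted, which lowers the values of near-identical genes.

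Genes with log2 CPM over 1 in at least 25% of kidneys were kept. All 3 groups were fitted together in edgeR 4.0.16 (R 4.3.3) with TMM factors and the quasi-likelihood test, 2-sided, with Benjamini-Hochberg adjustment over 13961 genes and a threshold of 0.05. Rows that name no gene stayed out of library sizes, among them reads outside genes (7.60% to 16.4% of alignments) and ambiguous reads (1.47% to 1.69%). CPM and log2 CPM (prior count 2) were computed with the same factors, and CPM per kilobase used the union of exons in GENCODE. The code was tested on simulated data. Correlations and permutation tests used numpy 2.4.6. DESeq2 1.42.0, other scaling and filters, a replicate block, each wildtype set and leaving out each kidney were alternatives.

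The members and all gene lists were chosen with earlier results of these data known. Adjusted edgeR p-values of these genes and permutation p-values of member pairs are therefore given as descriptions. All members, all receptors and partners, up to 4 genes per direction with the largest called difference in each other list, every list gene called with salsalate and the 3 genes most like each member were named. Some genes that this rule names are not reported here. Samples were grouped by their titles. Replicates are taken as kidneys of separate mice.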

Additional observations from a re-analysis of the deposited data

Results flagged for a closer look

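In wildtype replicate 1, Cyp4a14 was at 55.9 CPM, and its gap to the next of the 8 wildtype kidneys (15.4 CPM) was 0.768 of the group's whole range, above Dixon's critical value of 0.526 for 8 samples. Acot2 was at 98.5 CPM in the same kidney, with a gap of 0.567 of the range to the next value of 57.8 CPM. Chance alone passes this limit in about 1 of 20 groups of normally distributed values. It was applied here to CPM, and to the highest and lowest kidney of every member, so that rate need not hold. In log2 CPM, replicate 1, the next and the lowest wildtype kidney stood at 5.81, 3.96 and 1.71 for Cyp4a14. For Acot2 they stood at 6.62, 5.85 and 4.74. On that scale both gaps were a smaller share of the range, and the limit was not applied to them. Acot3 (23.0 CPM), Angptl4 (85.9 CPM) and Acot1 (91.9 CPM) were also highest in this kidney, and Cyp4a12a (19.8 CPM) was lowest, without passing the limit. Summed tubular injury markers were 504 CPM in this kidney and at most 416 CPM in the other wildtype kidneys. Summed androgen-responsive genes were lowest in it (9682 CPM, next 12524 CPM), as were proximal tubule (9787 CPM), adipocyte (1432 CPM) and liver markers (94.2 CPM), and summed glucocorticoid-responsive genes were highest (329 CPM, next 305 CPM). The part of these measures in the values of the members was not tested.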

How the results depend on the processing

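Between PKD and wildtype, 314 of 320 member values kept direction and call when 1 kidney was left out, and 91 of 100 did under the other alternatives. For PKD + Salsalate against PKD these were 276 of 320 and 75 of 80, and against wildtype 310 of 320 and 88 of 100. Leaving out 1 kidney gave 39 to 226 genes called between PKD + Salsalate and PKD (81 with all kidneys), 1 to 3 members (3), and 0 to 2 other PPAR targets (0), and 3 to 10 other targets against wildtype (5). The cause was not tested. It moved Pdk4 between -0.059 and 0.40 in PKD against wildtype, between -0.14 and 0.21 in PKD + Salsalate against PKD and between -0.020 and 0.43 against wildtype, Plin2 between -0.056 and 0.013 against wildtype, and Cyp4a12a between -0.14 and 0.0071 against PKD. Between PKD + Salsalate and PKD, a fit of only those groups called 195 genes and 1 other target, DESeq2's Wald test 199 and 2, no filter 1 other target, and leaving out PKD replicate 10 and wildtype replicate 1 gave 1 other target, with Cyp4a12a at 0.0071. Against wildtype, other targets called were 3 with only those groups, 15 with wildtype libraries ending in R and 14 with the others. Members called in PKD were 8 and 2 by these sets (5 over all), and in PKD + Salsalate 2 against the others (7 over all). Against the others, Cyp4a10 (-0.12), Acot1 (-0.22) and Pdk4 (-0.38) changed sign in PKD, and Acot2 (0.043) and Pdk4 (-0.35) in PKD + Salsalate. Plin2 in PKD + Salsalate against wildtype was 0.0059 with upper-quartile factors and 0.081 with libraries ending in R. Of 45 pairs in PKD kidneys, 2 passed by Spearman's rho, 7 with all 12 kidneys and 0 without the 2 farthest (11 otherwise).

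Replicate numbers did not pair the kidneys: same-numbered kidneys correlated between -0.55 and 0.47, with 3 of 8, 2 of 12 and 3 of 8 pairs over 0.1, and 1, 1 and 0 kidneys correlated best with their own number. With the replicate block, 48 genes and 1 member passed between PKD + Salsalate and PKD, 5 members between PKD and wildtype, and 8 members and 3 other targets between PKD + Salsalate and wildtype.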
